A study of Homo sapiens with 15 samples.

Results

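SLPI, PI3, WFDC2, LCN2, PTGDS, SCGB1D2 and SCGB2A1 are 7 genes of proteins that epithelia secrete and that are linked to defence of mucosal surfaces. All probe sets that carried 1 of these symbols and no other were taken, which gave 12 probe sets of the 54675 on the array, or 7 of 19775 genes. The group was put together because SLPI, PI3, PTGDS and SCGB1D2 read higher with both 003-type antibodies than with either folate-fed control. Those contrasts are therefore given as values without a test, and WFDC2, LCN2 and SCGB2A1 are described beside them as relatives.

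The cells were SKOV3ip1, a subline of the human ovarian cancer line SKOV3 recovered after growth in the peritoneum of mice, and messenger RNA was read on Affymetrix U133 Plus 2.0 arrays. Cultures with 003 antibody and with MORAb003 antibody had 7 days in medium with folic acid and 24 hours of antibody. A culture without folate had 7 days in folate-free medium. A culture with the control antibody 004 had 7 days of folic acid and 24 hours of that antibody, and a culture with folate alone had 7 days of folic acid, at 2 to 10 nM, which the labels write as nm. Titles name the folate source as MTF or 5-MTF, which differs from the folic acid of the other labels. MORAb-003 binds folate receptor alpha, and whether the antibody called 003 is the same one is not stated in the labels. Each condition was 1 culture and 1 RNA extract hybridised as 3 aliquots, so errors and p-values describe hybridisation of an extract and not the spread between cultures. In such a bulk extract, a change in RNA per cell and a change in the share of cells that make it cannot be told apart.

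SLPI and elafin, the product of PI3, are small inhibitors of neutrophil elastase built on the WAP fold. WFDC2 encodes HE4, a further WAP protein that is used as a serum marker of ovarian cancer. LCN2 and PTGDS are lipocalins, barrel-shaped carriers of small hydrophobic molecules. LCN2 binds bacterial iron carriers, and PTGDS is in addition the enzyme that turns prostaglandin H2 into prostaglandin D2. SCGB1D2 and SCGB2A1 encode lipophilin B and mammaglobin B, small secreted secretoglobins made by glands and the reproductive tract.

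In RefSeq (GRCh38.p14) SCGB2A1 and SCGB1D2 lie beside each other on chromosome 11, with 0 protein-coding genes between them. PI3 and SLPI lie on chromosome 20 with the semenogelin genes SEMG1 and SEMG2 between them, and 7 protein-coding genes separate SLPI from WFDC2. LCN2 and PTGDS are both on chromosome 9 but 154 protein-coding genes apart. Windows of 250 bases upstream of the start were matched for 5 of the 7 genes, namely WFDC2, LCN2, PTGDS, SCGB1D2 and SCGB2A1. The 4 windows printed here are those of the lipocalins and the secretoglobins, shown because 3 of them share a TATA-like word at nearly the same distance from the start. Capitals mark ATAAATA.
PTGDS, chr9:136977254-136977503, plus strand: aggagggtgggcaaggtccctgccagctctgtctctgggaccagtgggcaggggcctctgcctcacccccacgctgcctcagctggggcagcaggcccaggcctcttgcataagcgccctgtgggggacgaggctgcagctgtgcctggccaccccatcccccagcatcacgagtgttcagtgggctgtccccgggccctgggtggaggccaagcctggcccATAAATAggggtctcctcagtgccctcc
LCN2, chr9:128149203-128149452, plus strand: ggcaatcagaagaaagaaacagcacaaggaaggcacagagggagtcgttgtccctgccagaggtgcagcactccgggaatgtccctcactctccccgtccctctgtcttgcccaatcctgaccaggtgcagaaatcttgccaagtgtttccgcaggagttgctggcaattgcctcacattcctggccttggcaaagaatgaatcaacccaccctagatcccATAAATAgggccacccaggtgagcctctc
SCGB2A1, chr11:62208423-62208672, plus strand: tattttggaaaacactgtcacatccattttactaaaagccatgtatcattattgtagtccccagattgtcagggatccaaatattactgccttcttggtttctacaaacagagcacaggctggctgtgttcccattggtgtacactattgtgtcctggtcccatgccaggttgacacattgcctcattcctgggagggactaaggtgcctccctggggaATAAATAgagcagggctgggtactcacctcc
SCGB1D2, chr11:62241989-62242238, plus strand: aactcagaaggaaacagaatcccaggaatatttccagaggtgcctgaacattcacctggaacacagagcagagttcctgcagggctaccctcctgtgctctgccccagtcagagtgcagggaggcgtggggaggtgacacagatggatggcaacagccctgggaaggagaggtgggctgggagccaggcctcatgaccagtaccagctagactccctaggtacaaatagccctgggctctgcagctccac

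ATAAATA began 28 bases upstream of the start in PTGDS, 29 in LCN2 and 31 in SCGB2A1, on the strand of the gene. Searched on both strands, it stood in 4.6% of all 35116 windows of this length. It was not found in the windows of SCGB1D2 and WFDC2. Of the 4 genes that set the choice, only PTGDS thus had the word, while SLPI and PI3 had no window to search. LCN2 and SCGB2A1, which also had it, did not set the choice. The fixed bases of the kappaB site, GGG and CC with 5 free bases between them, were found in LCN2, PTGDS, SCGB2A1 and WFDC2 but also in 54.4% of all windows, and the AP-1 word TGANTCA was found in LCN2 among the members and in 6.57% of all windows. In LCN2 and PTGDS the kappaB matches on the 2 strands overlap. The letters describe these windows and no binding was measured.

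The array labelled replicate 1 of the 004 extract stood apart before any comparison. It correlated across probe sets with its own extract at as little as 0.948, where all other pairs of 1 extract reached at least 0.993, and its 90th percentile was log2 9.04 against 9.58 to 9.88 in the other arrays. Results that use 004 include this array unless stated, and some are given with and without it. By the labels, replicate 3 of every extract carries a later array date than replicates 1 and 2. The gap between the 3′ and 5′ probe sets of actin, which widens as RNA shortens, was log2 4.02 ± 0.10 (SD, n = 3 arrays) in the 003 extract, 2.42 ± 0.13 with MORAb003, 4.09 ± 0.16 without folate, 3.46 ± 0.31 with 004 and 3.24 ± 0.13 with folate. Of 13 ovarian epithelial cancer markers 12 reached log2 6.60, the median over probe sets, and mesothelin (MSLN) did not. Of 8 leukocyte markers on the array 2 did, with array means of the list between 6.11 and 6.58 in all 15 arrays. PTPRC, CD14, CSF1R and MPO were below that median in every extract, while ITGAM, at 6.74 to 7.01, and CD3E, at 6.85 to 7.13, were above it in every extract. Of 9 fibroblast and endothelial markers 7 reached it, with array means of the list between 7.04 and 7.34. Among them COL1A1 had extract means of 8.77 to 9.35.

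All 7 genes reached log2 6.60 in at least 1 extract and were among the 14369 genes tested, each through its brightest probe set. Values are log2 expression as deposited. Levels of different genes are not set against each other, since probe sets differ in brightness. With 003 and MORAb003, SLPI, PI3, PTGDS, SCGB1D2 and SCGB2A1 read above both controls in every array, while WFDC2 and LCN2 did not. The culture without folate also read above both controls in every array for the same 5 genes, and for PTGDS it lay below 003, with a mean of 10.56 against 11.23.

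**Figure D1:**
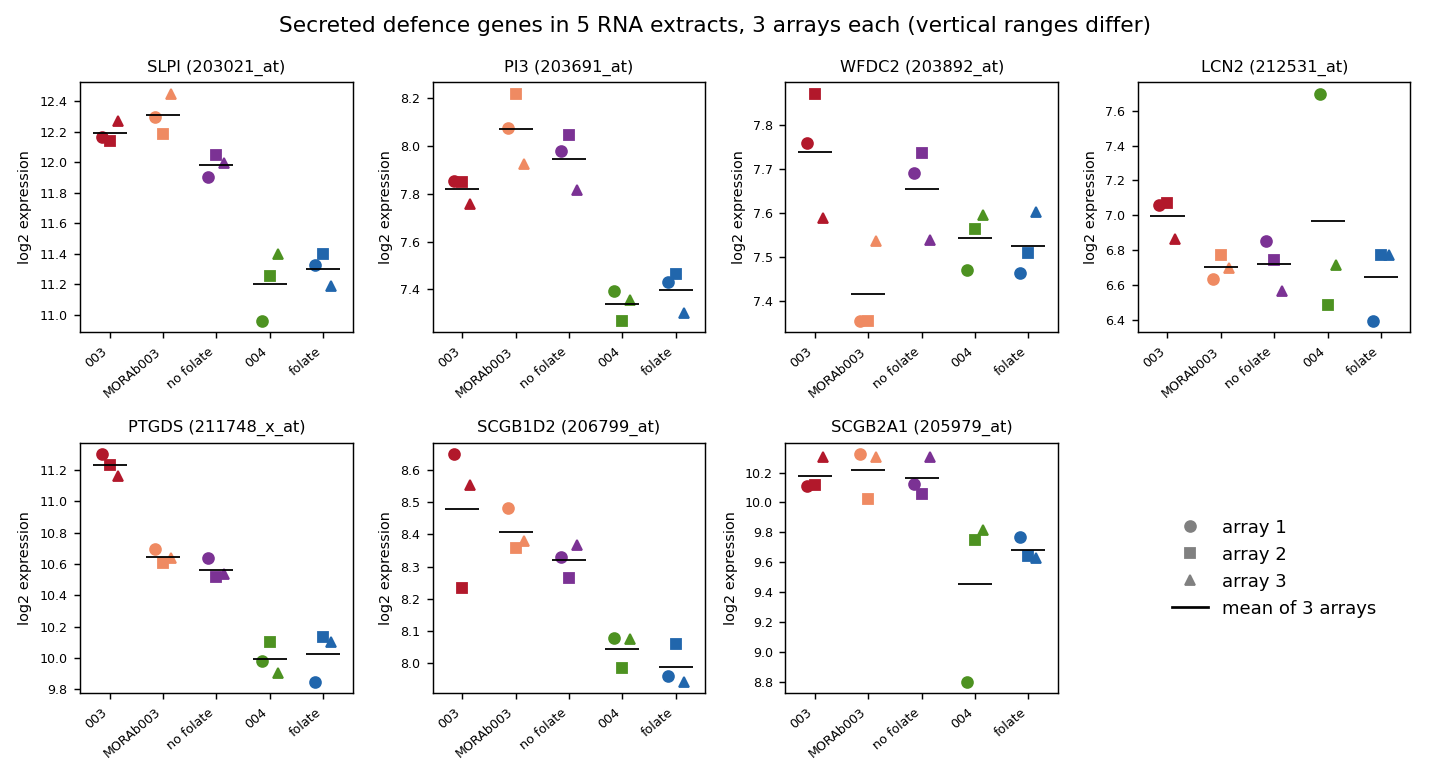
Level of each gene at its brightest probe set (log2 expression, vertical axis) in the 5 RNA extracts (horizontal axis), with a symbol per array and a line at the mean of 3 arrays. SLPI, PI3, PTGDS, SCGB1D2 and SCGB2A1 are high with 003, with MORAb003 and without folate and low with 004 and folate, while WFDC2 and LCN2 lack that order, and array 1 of the 004 extract lies apart for LCN2 at 7.70 and for SCGB2A1 at 8.80.

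SLPI, the secretory leukocyte protease inhibitor, read 12.17, 12.14 and 12.27 in the 003 arrays and 12.30, 12.19 and 12.45 in the MORAb003 arrays. Without folate it read 11.90, 12.05 and 11.995. It read 10.96, 11.25 and 11.40 with 004 and 11.33, 11.40 and 11.19 with folate. The 6 antibody arrays all lay above the 6 control arrays, and the lowest of them, 12.14, was well clear of the highest control, 11.40. The extract means followed the order MORAb003, 003, no folate, folate and 004. MORAb003 and 003 overlapped in their arrays, as did folate and 004, and the no-folate arrays overlapped with neither pair. Set against folate, SLPI differed by 0.89 with 003 and by 1.01 with MORAb003, which is 1.85-fold and 2.01-fold. Within the first and second array dates the difference was 0.79 and 1.08 with 003, and 0.88 and 1.26 with MORAb003.

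PI3, the gene of elafin, read 7.85, 7.85 and 7.76 with 003 and 8.08, 8.22 and 7.92 with MORAb003 at probe set 203691_at. It read 7.98, 8.05 and 7.82 without folate. With 004 it read 7.39, 7.27 and 7.36, and with folate 7.43, 7.46 and 7.30. All arrays of the first 3 extracts lay above all arrays of the 2 controls. The order of means was MORAb003, no folate, 003, folate and 004, with the no-folate arrays overlapping both antibody extracts and the controls overlapping each other. Against folate PI3 differed by 0.42 with 003 and by 0.67 with MORAb003.

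PTGDS, the lipocalin-type prostaglandin D synthase, read 11.30, 11.23 and 11.16 with 003 and 10.70, 10.61 and 10.64 with MORAb003 at probe set 211748_x_at. It read 10.64, 10.52 and 10.54 without folate. The controls read 9.98, 10.10 and 9.90 with 004 and 9.85, 10.13 and 10.10 with folate. The 003 extract stood alone at the top, the MORAb003 and no-folate arrays overlapped in the middle, and the 2 controls overlapped at the bottom. Against folate PTGDS differed by 1.21 with 003, or 2.31-fold, and by 0.62 with MORAb003, or 1.54-fold.

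SCGB1D2, the gene of lipophilin B, read 8.65, 8.23 and 8.55 with 003 and 8.48, 8.36 and 8.38 with MORAb003. It read 8.33, 8.26 and 8.37 without folate. The control arrays read 8.08, 7.99 and 8.07 with 004 and 7.96, 8.06 and 7.94 with folate. The first 3 extracts overlapped each other and lay above both controls, which overlapped. Against folate SCGB1D2 differed by 0.49 with 003 and by 0.42 with MORAb003.

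SCGB2A1, its neighbour on chromosome 11 and the gene of mammaglobin B, read 10.11, 10.12 and 10.31 with 003 and 10.32, 10.02 and 10.30 with MORAb003. It read 10.12, 10.06 and 10.31 without folate. The 004 arrays read 8.80, 9.75 and 9.81 and the folate arrays 9.77, 9.64 and 9.63. This gene was not among those that set the choice, yet all 6 antibody arrays lay above all 6 control arrays. Against folate it differed by 0.50 with 003 and by 0.54 with MORAb003. Against 004 the differences were 0.72 and 0.76, or 0.40 and 0.44 without replicate 1 of the 004 extract.

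LCN2, also called NGAL, read 7.06, 7.07 and 6.86 with 003 and 6.63, 6.77 and 6.70 with MORAb003. It read 6.85, 6.74 and 6.56 without folate. The 004 arrays read 7.70, 6.48 and 6.71 and the folate arrays 6.39, 6.77 and 6.77. The level was close to the median of all probe sets in every extract, and the value of 7.70 in replicate 1 of the 004 extract lay above all others. The 003 arrays lay above those with folate, by 0.35 in the means, and the MORAb003 arrays overlapped with them at a difference of 0.06. Against 004 the differences were 0.03 with 003 and -0.26 with MORAb003, or 0.40 and 0.10 without that array.

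WFDC2, the gene of HE4, read 7.76, 7.87 and 7.59 with 003 and 7.36, 7.35 and 7.54 with MORAb003 at its brightest probe set, 203892_at. It read 7.69, 7.74 and 7.54 without folate. The 004 arrays read 7.47, 7.56 and 7.59 and the folate arrays 7.46, 7.51 and 7.60. WFDC2 was thus lowest with MORAb003, where SLPI and PI3 were highest. Against folate it differed by 0.21 with 003 and by -0.11 with MORAb003, and both antibody extracts overlapped with folate.

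Counted over the 4 antibody contrasts, 5 of 7 genes had all 6 arrays of the 003 and MORAb003 extracts above all 6 control arrays, and 1.23% of the 14369 genes tested did so. The members' median difference from folate was 0.49 with 003, where all tested genes had a median of 0.03, and 0.54 with MORAb003, where all had -0.04. Since 4 of these genes were chosen on the same contrasts, nothing is read from the count. An adjusted p under 0.05 in all 4 contrasts was reached by 9 genes (0.0626%), which include those 4. Whether the choice itself used an adjusted p is not stated. On this measure a gene is placed by the smallest of the 4 differences and the largest of the 4 adjusted p-values (limma, Benjamini-Hochberg over all genes). SCGB1D2, inside the measure, had a smallest difference of 0.36 and a largest adjusted p of 0.0328, and PI3 had 0.42 and 0.0417. SCGB2A1, outside it by its adjusted p alone, had 0.50 and 0.183. Under quantile normalization of the arrays the difference between MORAb003 and 004 became 0.31 in place of 0.65 for PTGDS, 0.13 in place of 0.36 for SCGB1D2 and 0.44 in place of 0.76 for SCGB2A1.

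Probe sets of 1 gene read the same extracts and are no replicates, but they show whether a difference recurs when the same transcript is read elsewhere. For PI3, the second probe set, 41469_at, differed from folate by 0.26 with 003, 0.60 with MORAb003 and 0.30 without folate, against 0.42, 0.67 and 0.55 at 203691_at. Both thus had MORAb003 highest. A value of 7.23 in replicate 1 of the 004 extract lay among the MORAb003 arrays and above the 003 arrays of this set. The difference between 003 and 004 was 0.10 with that array and 0.30 without it.

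For PTGDS, all 3 probe sets carry the suffix that Affymetrix gives to sets with probes shared between transcripts. Probe set 211748_x_at has been given above. The differences from folate of 212187_x_at were 1.13 with 003, 0.58 with MORAb003 and 0.50 without folate. Those of 211663_x_at were 0.89, 0.50 and 0.40 in the same order. In all 3 sets the 003 extract was highest, followed by MORAb003 and no folate. In 211663_x_at, the dimmest, replicate 1 of the 004 extract read 9.05 and lay above all MORAb003 and no-folate arrays.

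For WFDC2, the probe sets other than 203892_at were dim, at 5.85 to 6.93 for 1552261_at and 5.92 to 6.64 for 1553089_a_at over the 15 arrays. 1553089_a_at was lower with MORAb003 than with folate, at -0.33, with no overlap of arrays, and differed by 0.05 with 003. 1552261_at differed by 0.07 with 003 and -0.07 with MORAb003, with overlap in both. WFDC2 was higher with 003 than with MORAb003 by 0.32 at 203892_at, 0.38 at 1553089_a_at and 0.14 at 1552261_at, the last with overlapping arrays. SLPI, LCN2, SCGB1D2 and SCGB2A1 each had 1 probe set and allow no such comparison.

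**Figure D2:**
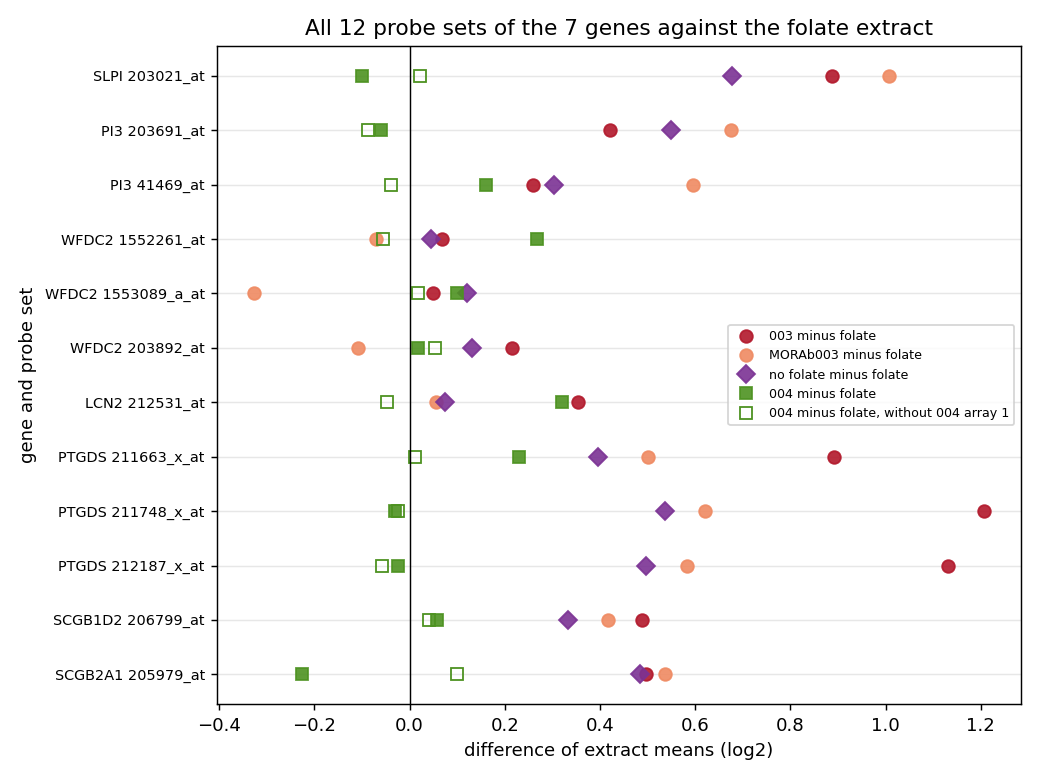
Difference of extract means from the folate extract (log2, horizontal axis) for each of the 12 probe sets (vertical axis), for the 003, MORAb003, no-folate and 004 extracts. Open squares give 004 without its array 1. The 3 PTGDS sets have 003 highest, both PI3 sets have MORAb003 highest, and the 3 WFDC2 sets put MORAb003 below 003.

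The first tested comparison asked how the genes differed between cultures without and with folate. That contrast did not set the choice but shares its folate arrays with contrasts that did. Those arrays had to read low for SLPI, PI3, PTGDS and SCGB1D2, which favours a rise without folate. SLPI rose by 0.68 without folate (SE 0.12, adjusted p = 0.00801), which is 1.60-fold, and passed the call of an adjusted p under 0.05 with at least 1.5-fold. It was the 1 of 7 genes called, where 2.71% of all genes were called in either direction. PI3 rose by 0.55 (SE 0.10, adjusted p = 0.0110) and PTGDS by 0.54 (SE 0.10, adjusted p = 0.0110), both under 1.5-fold. Without a fold minimum 3 of 7 genes passed, against 4.06% of all genes.

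SCGB2A1 differed by 0.48 (SE 0.21, adjusted p = 0.215) and SCGB1D2 by 0.33 (SE 0.11, adjusted p = 0.102), and neither passed. Their no-folate arrays nevertheless lay above their folate arrays, as they did for 5 of 7 genes against 20% of all genes. As the choice favoured low folate arrays, nothing is read from that count. Without replicate 1 of the 004 extract, which enters through the shared error only, the same differences had adjusted p-values of 0.000866 for SCGB2A1 and 0.0103 for SCGB1D2, at an unchanged size under 1.5-fold. WFDC2 differed by 0.13 (adjusted p = 0.573) and LCN2 by 0.08 (adjusted p = 0.934). The call of SLPI was lost without folate replicate 3, at a difference of 0.62 and an adjusted p of 0.0558, and in a fit of extract means that set no folate against folate and 004 with 2 residual degrees of freedom, at 0.73 and an adjusted p of 1.00. Within the first array date, with 2 arrays per extract, the SLPI difference was 0.61 (adjusted p = 0.330), and within the second, with 1, it was 0.81.

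These differences stood beside an actin gap of 4.09 without folate and 3.24 with it, and the part of RNA length in them was not tested. The 003, MORAb003 and 004 extracts had gaps of 4.02, 2.42 and 3.46 and SLPI means of 12.19, 12.31 and 11.20, and a relation between them was not tested.

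The second tested comparison set the 2 antibody extracts against each other. The choice of genes did not use this difference, but it used all 6 of these arrays, since both extracts had to read high. PTGDS rose in the 003 extract relative to MORAb003 by 0.59 (SE 0.10, adjusted p = 0.000519), or 1.501-fold, and was the 1 of 7 genes called, where 25.4% of all genes passed. Of those genes 1120 were higher and 2532 lower with 003, while quantile normalization gave 1646 higher and 2005 lower. Within the first array date the PTGDS difference was 0.62 (adjusted p = 0.0237), and within the second it was 0.53. That difference lay at the edge of the fold minimum: it was 0.55 without replicate 1 of 003, 0.57 without replicate 2 and 0.58 without replicate 3 of MORAb003, and none of these was called, although each kept an adjusted p under 0.05. WFDC2 was higher with 003 by 0.32 (SE 0.10, adjusted p = 0.0207), under 1.5-fold, with 0.46 within the first array date and 0.05 within the second. Without a fold minimum 2 of 7 genes passed, against 44.6% of all genes.

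PI3 differed by -0.25 (SE 0.10, adjusted p = 0.0581), with its 003 arrays below its MORAb003 arrays. SLPI differed by -0.12 (adjusted p = 0.428), SCGB1D2 by 0.07 (adjusted p = 0.606), SCGB2A1 by -0.04 (adjusted p = 0.889) and LCN2 by 0.30 (adjusted p = 0.311). Without replicate 1 of the 004 extract, PI3 and LCN2 passed at adjusted p-values of 0.0153 and 0.0227, still under 1.5-fold. The signs of SLPI and SCGB2A1 turned after quantile normalization, to 0.04 and 0.14. The members' shares were below those of all genes in this contrast. Nothing is read from that, since the choice favoured genes that read high in both extracts. The actin gap was 4.02 with 003 and 2.42 with MORAb003. The part of RNA length in these differences was not tested.

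The third compared the control antibody 004 with folate alone. The choice of genes did not use this difference, but it used all of these arrays, since both extracts had to read low. Small differences between them were thus favoured for SLPI, PI3, PTGDS and SCGB1D2. By limma 0 of 7 genes and 0 of 14369 genes (0%) were called, while 1276 of all genes had an unadjusted p under 0.05. The largest differences among the 7 were those of LCN2, 0.32 (adjusted p = 0.426), and SCGB2A1, -0.23 (adjusted p = 0.482). Both rested on replicate 1 of the 004 extract, and became -0.05 and 0.10 without it. The other 5 differed by -0.10 to 0.06.

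**Figure D3:**
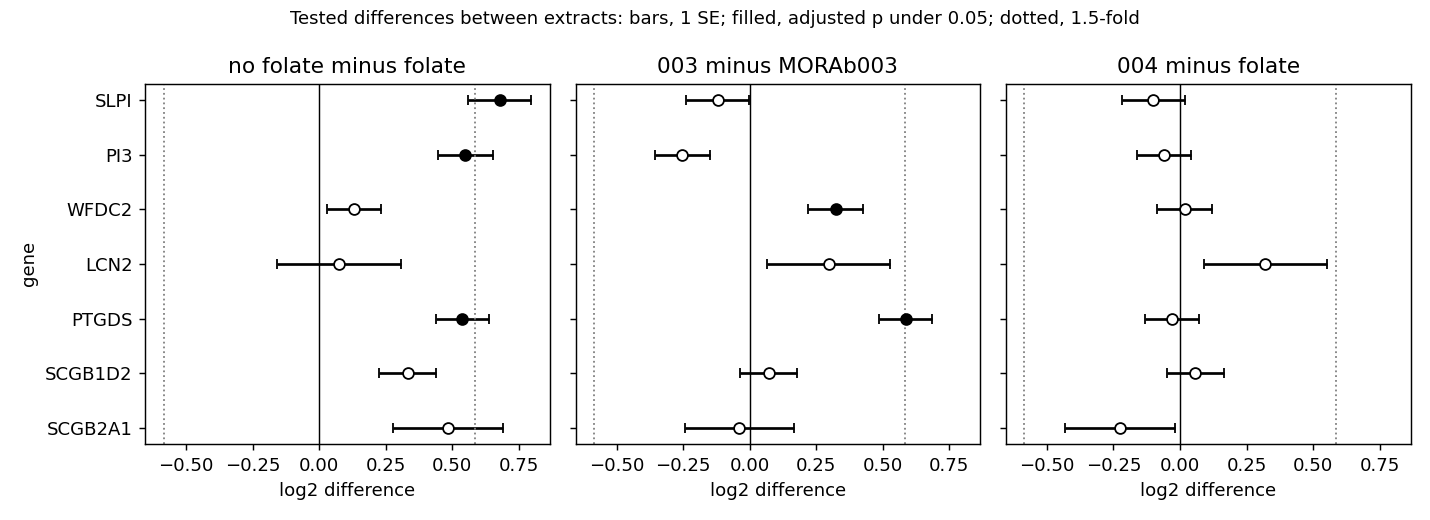
Tested log2 differences (horizontal axis) of the 7 genes (vertical axis) between no folate and folate, 003 and MORAb003, and 004 and folate, with bars of 1 SE and dotted lines at 1.5-fold. Filled points have an adjusted p under 0.05, namely SLPI, PI3 and PTGDS without folate and WFDC2 and PTGDS in 003 against MORAb003.

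Relatives of the 7 genes are given by counts, beside the share of all genes called. That share was 2.71% without folate, 25.4% between 003 and MORAb003 and 0% between 004 and folate. It was 3.47% between 003 and 004, 2.02% between 003 and folate, 19.9% between MORAb003 and 004 and 6.58% between MORAb003 and folate. Of 8 tested further genes of the WAP family 0 were called in any of the 7 contrasts between extracts by limma (0 to 3 had an unadjusted p under 0.05), with a median difference from folate of 0.04 with 003 and -0.19 with MORAb003. Of 10 further lipocalins, RBP4, a retinol carrier, was lower with 003 than with MORAb003 at -0.63 (adjusted p = 0.0127, or 0.0661 without 003 replicate 2). RBP4 was also higher with MORAb003 than with 004, by 0.59 (adjusted p = 0.0230), or by as little as 0.32 when 1 array was left out, and the call was lost without 004 replicate 1 or any 1 MORAb003 array. Of these lipocalins 0 were called without folate or between either antibody and folate (0 to 2 at an unadjusted p under 0.05). Of 3 further secretoglobins 0 were called by limma in any of the 7 contrasts (0 or 1 at an unadjusted p under 0.05).

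Among 17 tested genes of other secreted defence proteins, DEFB1, a beta-defensin with antimicrobial activity, read 11.62 with MORAb003 and 10.26 with folate and rose by 1.36 (SE 0.26, adjusted p = 0.00548). It was the 1 gene of this list called between MORAb003 and folate, where 6.58% of all genes were called. DEFB1 differed from folate by 0.59 (adjusted p = 0.201) with 003 and by -0.30 (adjusted p = 0.621) without folate, and so did not share the no-folate position of SLPI. Against 004, DEFB1 was higher by 1.08 with 003 (adjusted p = 0.0289) and by 1.84 with MORAb003 (adjusted p = 0.000404). These calls were kept in 12 and 15 of 15 omissions of 1 array. MUC1, a membrane mucin, read 9.08 without folate and 8.01 with it and rose by 1.08 (SE 0.14, adjusted p = 0.00270), the 1 gene of this list called there. It also rose with 003, to 8.64, by 0.63 against folate (adjusted p = 0.0305) and by 0.77 against 004 (adjusted p = 0.0129), calls kept in 7 and 11 of 15 omissions of 1 array. It was higher with 003 than with MORAb003, at 8.64 and 8.02, by 0.62 (adjusted p = 0.00348, under 1.5-fold without MORAb003 replicate 2). DEFB1 was lower with 003 than with MORAb003 by -0.76 (adjusted p = 0.0268), a call kept in 10 of 15 omissions. CXCL1 and CXCL8, chemokines that attract neutrophils, were lower with 003 than with MORAb003 by -0.76 (adjusted p = 0.0108) and -0.69 (adjusted p = 0.000322). These 4 of 17 genes were called in that contrast, where 25.4% of all genes were. Other genes of this list, such as C3, did have both antibody means and the no-folate mean above both controls. C3 read 9.22 with 003, 9.55 with MORAb003, 9.28 without folate, 8.98 with folate and 8.90 with 004. It was called between MORAb003 and 004, at 0.65 (adjusted p = 0.00159, kept in 15 of 15 omissions). There 3 of 17 were called higher and 1 lower, against 19.9% of all genes.

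ELANE, the gene of the neutrophil elastase that SLPI and elafin inhibit, read between 5.74 and 6.14 in the 5 extracts and was not tested. Of 18 tested genes of proteases and other inhibitors, TIMP2 and SERPINB1, inhibitors of metalloproteinases and of neutrophil serine proteases, were lower with 003 than with MORAb003 by -1.30 (adjusted p = 0.000318) and -0.80 (adjusted p = 0.00359). These 2 of 18 were called in that contrast, where 25.4% of all genes were, and 0 of 18 were called without folate by limma (2 at an unadjusted p under 0.05), where 2.71% of all genes were. CST3, another gene of this list, read 10.48 with 003, 10.49 with MORAb003, 10.49 without folate, 10.10 with folate and 9.83 with 004. It was called higher than with 004 for 003, by 0.64 (adjusted p = 0.0176), and for MORAb003, by 0.65 (adjusted p = 0.00326). Both calls were lost without 004 replicate 1, and the call for 003 also without any 1 of the 003 arrays. They were kept in 11 of 15 omissions for 003 and in 14 for MORAb003. In these contrasts 1 and 3 of 18 were called, against 3.47% and 19.9% of all genes. TGM2, a transglutaminase of the family that anchors elafin to matrix, read 9.28 with 003 and 10.57 with MORAb003, a difference of -1.28 (adjusted p = 0.000179).

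Around PTGDS, 11 genes of prostaglandin synthesis and reception were tested. Between 003 and MORAb003, 1 of 11 was called higher and 3 lower, where 25.4% of all genes were called. Between MORAb003 and folate 1 was called higher and 1 lower, against 6.58% of all genes. PTGES, which makes prostaglandin E2 from the same precursor, read 12.06 with 003, 10.91 with MORAb003 and 11.77 with folate. It was higher with 003 than with MORAb003 by 1.15 (adjusted p = 0.000123) and fell by 0.86 with MORAb003 against folate (adjusted p = 0.00486). AKR1C3, which can reduce prostaglandin D2, read 7.91 with 003, 9.63 with MORAb003 and 8.23 with folate. It rose by 1.40 with MORAb003 against folate (adjusted p = 0.00351) and was lower with 003 than with MORAb003 by -1.72 (adjusted p = 0.000152). Without folate the 1 of 11 genes called was ABCC4, a transporter that exports prostaglandins, where 2.71% of all genes were called. ABCC4 read 10.08 without folate and 10.93 with it and fell by 0.85 (adjusted p = 0.0135, kept in 11 of 15 omissions of 1 array). It was also lower with 003 than with MORAb003, by -0.61 (adjusted p = 0.00854, kept in 12 of 15 omissions). PTGES3 was lower in that contrast by -0.73 (adjusted p = 0.000903). PTGES read 11.77 without folate, the same as with it (adjusted p = 0.998), and AKR1C3 differed by 0.39 (adjusted p = 0.444).

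Of 19 tested regulators of epithelial defence genes, NFKBIA, the feedback inhibitor of NF-kB, read 12.19 with 003, 10.91 with MORAb003 and 11.19 with folate. ELF3, an epithelial ETS factor, and NFKBIA were higher with 003 than with MORAb003 by 0.99 (adjusted p = 0.000164) and 1.27 (adjusted p = 0.000145). IL1R1, the receptor of interleukin 1, read 9.35 with 003, 10.79 with MORAb003, 9.13 without folate and 10.03 with folate. It was lower with 003 than with MORAb003 by -1.44 (adjusted p = 8.05e-05), and fell by 0.90 without folate (adjusted p = 0.0184), a call lost when either of 2 no-folate or 2 folate arrays was left out (adjusted p up to 0.111). Between 003 and MORAb003, 3 of the 19 were called higher and 2 lower, near the 25.4% of all genes called there, and without folate IL1R1 was the 1 called, against 2.71%. With 003, 3 of 19 were called higher against 004 (3.47% of all genes) and 2 against folate (2.02%), and 0 lower. NFKBIA rose there by 1.27 (adjusted p = 0.00638) and 1.00 (adjusted p = 0.0174, kept in 11 of 15 omissions of 1 array). MAP3K14 rose by 0.76 (adjusted p = 0.00701) and 0.64 (adjusted p = 0.0144), kept in 14 and 11 of 15 omissions. With MORAb003, 3 of 19 were called higher against 004 (19.9% of all genes) and 0 lower. These were IL1R1 by 1.12 (adjusted p = 0.00114), CEBPB by 1.03 (adjusted p = 0.00414) and KLF5 by 0.78 (adjusted p = 0.0220). They were kept in 15, 15 and 12 of 15 omissions. Against folate (6.58% of all genes) MORAb003 had IL1R1 higher by 0.77 (adjusted p = 0.0195, kept in 11). ELF3 was lower there by -0.66 (adjusted p = 0.0111, kept in 13). None of NFKBIA, ELF3 and IL1R1 had the order of extracts seen for SLPI. Other regulators did have both antibody means and the no-folate mean above both controls, such as MAP3K14 and NFKB2. MAP3K14 read 9.33 with 003, 9.13 with MORAb003, 8.86 without folate, 8.69 with folate and 8.57 with 004. NFKB2 read 7.92, 7.68, 7.74, 7.46 and 7.41 in the same order and was not called. Without folate MAP3K14 differed by 0.17 (adjusted p = 0.466). The calls between 003 and MORAb003 named for these lists held when any 1 of the 15 arrays was left out, with RBP4, DEFB1, MUC1 and ABCC4 excepted. The calls of DEFB1, PTGES and AKR1C3 between MORAb003 and folate and of MUC1 without folate held as well.

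**Figure D4:**
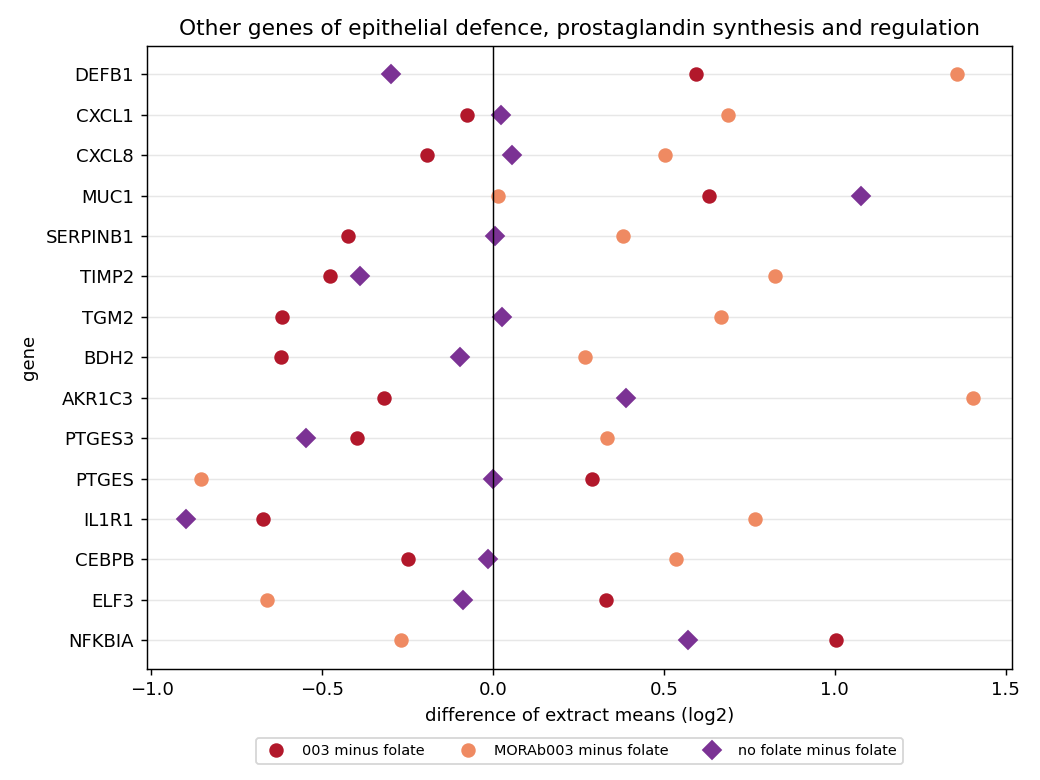
Difference of extract means from the folate extract (log2, horizontal axis) for 15 further genes (vertical axis) in the 003, MORAb003 and no-folate extracts, a set picked after their values were seen. DEFB1 and AKR1C3 lie highest with MORAb003 at 1.36 and 1.40, MUC1 without folate at 1.08 and NFKBIA with 003 at 1.00.

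The genes most like SLPI and PI3 in their 5 extract means, each centred on its own mean, were picked by the smallest root-mean-square difference. For SLPI these were MYL9, SCGB2A1, CYBA, AKR1C1 and AKR1C2, at 0.165, 0.173, 0.183, 0.184 and 0.186 log2. For PI3 these were AKR1C2, METTL2B, RPL29, SCGB2A1 and AKR1C1, at 0.0460, 0.0591, 0.0842, 0.0889 and 0.0913. SCGB2A1, AKR1C1 and AKR1C2 stood on both lists. AKR1C2, a steroid-converting aldo-keto reductase whose transcript is nearly identical to that of AKR1C1, read 10.66 with 003, 10.81 with MORAb003, 10.75 without folate, 10.06 with 004 and 10.22 with folate. The closeness rests on 5 points from 5 single cultures and includes replicate 1 of the 004 extract.

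Of the tested genes that lie between SLPI and WFDC2 on chromosome 20, the 6 differences from folate with MORAb003 were -0.25 to 0.01. PIGT differed from folate by 0.34 with 003, -0.01 with MORAb003 and 0.43 without folate, and SDC4 by 0.24, -0.01 and 0.37 in the same order. SEMG1 and SEMG2, between PI3 and SLPI, were not tested and read below 5.6 in all 5 extracts.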

How the data were processed

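Per the labels, RNA of SKOV3ip1 cells was isolated with Trizol, labelled as biotinylated cRNA and hybridised to 15 arrays. Expression was deposited on a log2 scale, 1 value per probe set and array, between 4.00 and 15.5, with array medians of 6.53 to 6.67. How the authors summarised and normalized them is not given in the sources used here, and differences of dim genes may be compressed. The log2 values were used as deposited. After removal of 62 control probe sets, 41091 carried 1 gene symbol, 1801 several and 11721 none, and symbols were updated through the Entrez identifier (41037 matched RefSeq). Each gene was read at its brightest probe set and tested if 1 extract mean reached log2 6.60.

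Extracts were compared with limma 3.58.1 (lmFit, eBayes) in R 4.3.3, with 5 group means over 15 arrays, 10 residual degrees of freedom and Benjamini-Hochberg adjustment over 14369 genes. A call needs an adjusted p under 0.05 and 1.5-fold. The fit was tested on simulated data. The number of arrays, and the single culture per condition, limit precision. Arrays with the same replicate number did not deviate together in any contrast for all 3 numbers: correlations were -0.55 to 0.08 in the tested contrasts and -0.42 to 0.52 in the antibody contrasts, where at most 2 of 3 were over 0.1. The numbers were therefore not taken to pair arrays.

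The 7 genes, the gene lists and the tests were chosen with earlier results of these data known. Named are all members, up to 4 called genes per list and contrast with the largest difference, uncalled genes as examples, and the 5 genes nearest to SLPI and to PI3. Alternatives covered normalization, filters, probe set choice, fold minimum, blocks, array dates and left-out arrays.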

Additional observations from a re-analysis of the deposited data

Results flagged for a closer look

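The 2 antibody extracts were each set against the same controls. They differed from each other in 2 of the 7 genes at an adjusted p under 0.05 by limma, against 44.6% of all genes. Since SLPI, PI3, PTGDS and SCGB1D2 were chosen as high in both extracts, nothing is read from that share. PTGDS was higher with 003 than with MORAb003 by 0.59 (log2, adjusted p = 0.000519), and WFDC2 by 0.32 (adjusted p = 0.0207). Each condition was 1 culture, and the 2 extracts also differed in the actin 3′ to 5′ gap, 4.02 and 2.42. The part of that gap in either difference was not tested.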

How the results depend on the processing

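Of the tested differences of the 7 genes, none turned its sign while called. Between no folate and folate 389 genes were called. The count was 644 after quantile normalization, 1192 with every probe set tested on its own, 192 with the mean of probe sets, 64 at 2-fold, 919 with the 6 arrays compared alone, and 0 within the first array date and 0 with extract means as samples. It ranged over 0 to 921 when arrays were left out. It was 921 without 004 replicate 1, 101, 133 and 206 without no-folate replicates 1, 2 and 3, and 91, 249 and 102 without folate replicates 1, 2 and 3. Without replicate 1, 2 or 3 of all extracts it was 635, 0 and 0. Between 003 and MORAb003 3652 genes were called, against 7487 with every probe set, 6412 with no fold minimum, 1430 at 2-fold, and 1349 to 3877 when arrays were left out, the lowest without replicate 2 of all extracts. Between 004 and folate 0 genes were called by limma in all of these settings. With the replicate number as a block the counts were 327, 3646 and 0, and no call among the 7 genes changed. PI3 and PTGDS without folate crossed 1.5-fold without no-folate replicate 3 (0.61, adjusted p = 0.0202) and without folate replicate 2 (0.59, adjusted p = 0.0225), PTGDS also after quantile normalization (0.62). SLPI lost its call without replicate 2 of all extracts (0.69, adjusted p = 0.319). PTGDS in 003 against MORAb003 was 0.51 with the mean of probe sets. The cause was not tested. The main limit is 1 culture per condition.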
